A study of Mus musculus with 6 samples.

Results

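The genes described here encode the secreted and membrane-bound metalloproteinases that cut the extracellular matrix and the inhibitors of these enzymes. They are the rows of the read count table whose symbol is Mmp, Adamts, Adamtsl or Timp followed by a number, with the letter of a duplicated gene where there is one. The rule uses names alone, and it finds 51 of the 55341 genes in the table, namely 23 Mmp, 19 Adamts, 5 Adamtsl and 4 Timp genes. Counts were seen for 43 of them, and 41 passed the filter on few counts and were tested. The 8 genes without a count in any library were Mmp1a, Mmp1b, Mmp7, Mmp10, Mmp20, Mmp21, Adamts18 and Adamts19. The other two that were not tested were Adamts13, with 1 count in 1 library, and Mmp25, with 18 counts in 1 library.

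RNA of the aortic arch and thoracic aorta from 3 miRNA-26b-/- mice (libraries M2626, M2627 and M2628) and 3 miRNA-26b+/+ mice (libraries M2629, M2630 and M2631) was sequenced as 1 library per mouse. The spread between libraries therefore holds that between animals together with that of dissection and library preparation, which cannot be told apart. All mice were 8 weeks old, were fed chow and are labelled C57BL/6NCrl. The null allele came from targeted 129/Sv embryonic stem cells, a tamoxifen-induced CreERT2 removed the floxed hairpin, and CreERT2 was then bred out. The question put to these genes is whether their transcript levels differ between aortas with and without miRNA-26b, a small RNA that lowers the output of mRNAs it pairs with.

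Matrix metalloproteinases (MMPs) are zinc enzymes that are made as inactive precursors and cut collagens, elastin, proteoglycans and cell surface proteins. The ADAMTS enzymes are relatives with thrombospondin repeats that bind them to the matrix, several of which cut the large proteoglycans versican and aggrecan, while the ADAMTS-like proteins carry the repeats and lack the catalytic part. TIMPs are small proteins that block the active site of these enzymes, and in the wall of the aorta the balance of enzymes and inhibitors bears on the upkeep of elastic lamellae and collagen.

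The libraries held 25706728 to 33345037 counts, of which 0.529 to 0.655% fell on these genes. The labels call the material endothelial cells, whereas the summed level of 8 smooth muscle markers was 38506 to 49720 TPM (a level per exon length, scaled to the same total in each library, that allows genes to be compared) and that of 8 endothelial markers was 248 to 854 TPM. Mir26b had 20 counts in the miRNA-26b+/+ library M2630 and 0 in the other 5, so the table cannot check the deletion. Its host gene Ctdsp1 was measured at 182 to 201 CPM (counts scaled to library size with TMM factors, used to compare libraries) in miRNA-26b-/- and 149 to 180 CPM in miRNA-26b+/+ aortas. Schwann cell markers summed to 162 to 243 TPM in miRNA-26b-/- and 37.7 to 94.5 TPM in miRNA-26b+/+ libraries, with 6 of 7 tested markers higher at an unadjusted p under 0.05 and Mag at 0 in 5 libraries. Skeletal muscle markers summed to 26.5 to 131 TPM against 10.8 to 16.8 TPM, with 6 of 8 higher, and Mylpf, Myh4 and Myh1 were at 0 in every miRNA-26b+/+ library. Neutrophil markers summed to 0 to 19 TPM against 36.6 to 87.5 TPM, and Mpo was at 0 in every library. Of the 8, only S100a8 and S100a9 passed the filter on few counts. S100a9 was lower in all miRNA-26b-/- libraries, whereas S100a8 overlapped, at 1.61 CPM in M2627 and 0.751 CPM in M2629. Ly6g had counts only in M2631, and Elane and Camp only in M2629. Lymphocyte, cartilage and cardiac markers overlapped between the genotypes, at 0.716 to 10.7, 52.3 to 155 and 19.6 to 378 TPM. The cardiac sum was 378 TPM in M2627 and 304 TPM in M2630, against 19.6 to 69.1 TPM elsewhere. Of that list, Ryr2 was lowest in M2627 and Nppa had counts only in M2630. Of the cartilage list, Col2a1, Matn1 and Cnmd were at 0 in every library. Comp and Acan, also listed as substrates in the vessel wall, gave 123 and 22.8 of the 155 TPM in M2628. In bulk tissue, fewer cells of a type and less RNA per cell cannot be told apart.

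The small RNA and the places where it can pair with these transcripts are shown because the knockout removes it. By real time PCR, the paper saw no compensatory effect of the closely related miRNA-26a in the knockout. Whether miRNA-26a pairs with these places was not tested. In the RefSeq sequence of mouse miRNA-26b-5p, from chr1:74394324-74394344 of GRCm38.p6 on the forward strand, the capitals mark the seed, bases 2 to 8, which finds the target by pairing.
mmu-miR-26b-5p: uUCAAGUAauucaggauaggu
The letters that pair with the seed, TACTTGA, were searched on the sense strand of the longest 3′ UTR annotated for each gene in GENCODE M21. Of the 41 tested members 7 (17.1%) held them, against 11.3% of the 13464 tested genes with an annotated 3′ UTR, and the median lengths searched were 1724 and 1205 bases. An A follows the seed match in 4 of the 7 (9.76% of the members, 4.92% of all genes), a form called 8mer. The 7 sites are written as in the transcript, with the match and a following A in capitals, and stand here as matching letters, not as shown sites of binding.
Mmp14 (chr14:54444037-54444049, forward strand): tgatgTACTTGAg
Mmp16 (chr4:18118414-18118434, forward strand): aaaaaacctcaaaTACTTGAA
Mmp24 (chr2:155816759-155816779, forward strand): attttgcaaaggcTACTTGAg
Adamts6 (chr13:104495155-104495175, forward strand): tgttaatgcttcgTACTTGAA
Adamts7 (chr9:90207803-90207816, forward strand): cgcagaTACTTGAA
Adamts9 (chr6:92772868-92772888, reverse strand): tcacaagacatttTACTTGAg
Adamts20 (chr15:94322736-94322756, reverse strand): accacgttcctttTACTTGAA
The windows of Mmp14 and Adamts7 are short because the match starts at bases 6 and 7 of the annotated 3′ UTR. For Mmp14 the match is in 1 of 2 coding transcripts with a 3′ UTR, for Adamts7 in 1 of 4, and for Adamts6 and Adamts20 in 1 of 2 each.

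Transcripts of the inhibitors Timp2 and Timp3 had higher levels than those of any single enzyme. Timp2 had the highest mean level over the 6 libraries, 1105 TPM, and Timp3 followed with 751 TPM. The highest enzymes were Mmp2, a gelatinase that cuts denatured collagen and type IV collagen, with 227 TPM, Adamts1, a versican-cutting enzyme, with 214 TPM, and Mmp23 with 168 TPM. Mmp3 (stromelysin 1) had 162 TPM, Adamts2, which trims the amino end of procollagens, 140 TPM, Mmp17, a membrane-anchored MMP, 121 TPM, Timp1 82.4 TPM and Adamtsl5 64.0 TPM. In all, 8 of the 51 members had a mean of at least 100 TPM, 24 had at least 10 TPM and 13 had less than 1 TPM. Neighbours in this order often changed places between libraries, as the plot of levels by library shows for Adamts1, Mmp23, Mmp3 and Adamts2.

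**Figure D1:**
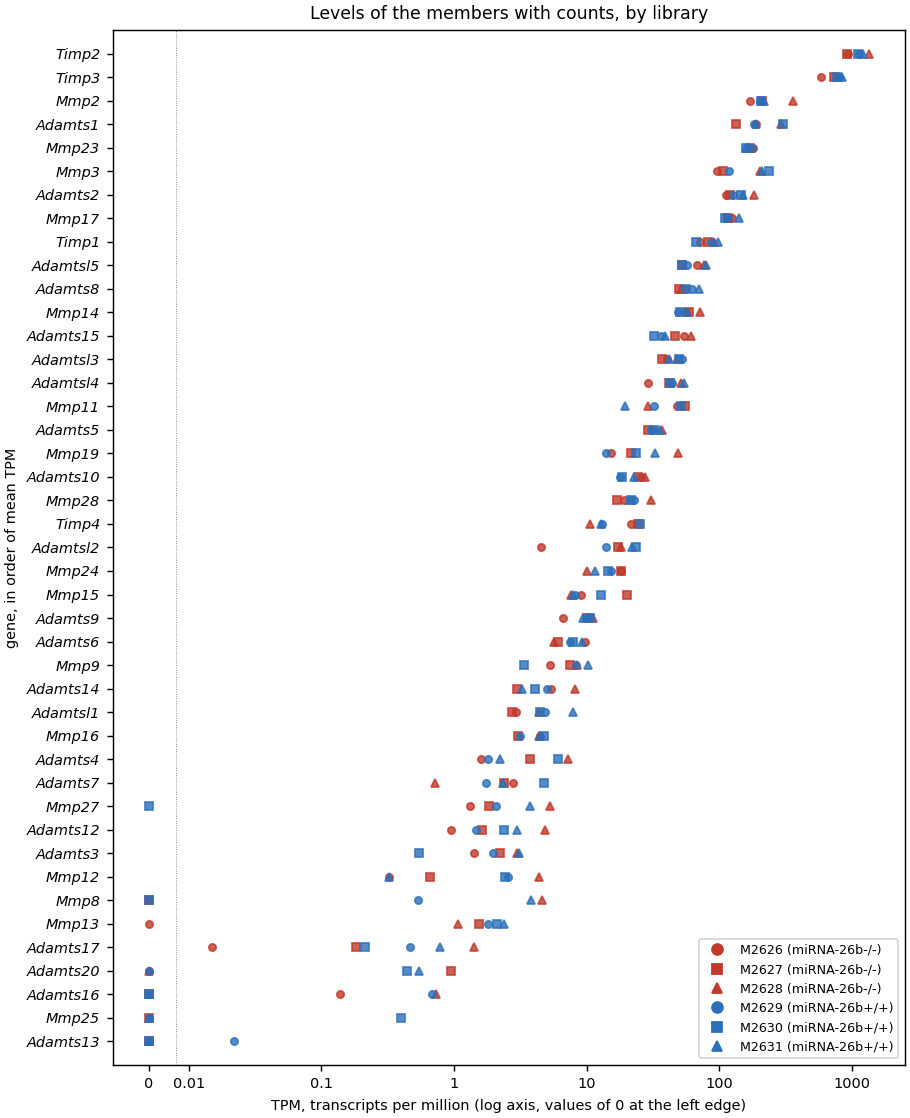
Level of each of the 43 members with counts in each library (x axis, TPM on a log axis with values of 0 at the left edge; y axis, genes by mean TPM; red, miRNA-26b-/-; blue, miRNA-26b+/+; symbols, libraries). Timp2 and Timp3 lie above every enzyme, and the genes below 10 TPM spread most between libraries.

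Between the genotypes, the levels differed little for most members. Of the 41 tested, 26 had a fitted log2 fold change above 0 and 15 below 0, and of all 16017 genes tested 8228 lay above 0. The median log2 fold change (miRNA-26b-/- minus miRNA-26b+/+) was 0.04 against 0.01 over all genes tested, and 36 members differed by less than 0.5 on the log2 scale. The share of all genes under 0.5 was not computed. No member passed an adjusted p of 0.05 in edgeR's quasi-likelihood test with Benjamini-Hochberg adjustment over all genes, the smallest being 0.64, and over all genes 0.00624% passed, which is 1 gene. At an unadjusted p under 0.05, 3 members were called, or 7.32% against 6.47% of all genes. Of these, 2 were higher in miRNA-26b-/- aortas (3.4% of all genes were) and 1 was lower (3.07% of all genes were), so the share of members called was near that of the table as a whole. With DESeq2 and with limma voom 3 members were also called at an unadjusted p under 0.05, where 5.28% and 5.29% of all genes were. After adjustment DESeq2 called 1 member, Adamts15, among 57 genes in all, and voom and edgeR's likelihood ratio test called 0 members, among 3 and 19 genes. Without the library M2628 the count at an unadjusted p under 0.05 was 5 of 39, where 10.8% of all genes were called. Without M2627 and M2630 together it was 1 of 40, where 4% of all genes were called. These libraries had the most sympathetic neuron, adipocyte and cardiac marker RNA. All 3 miRNA-26b-/- values lay above all 3 miRNA-26b+/+ values for Adamts15, Adamts10 and Mmp14 (5.65% of all genes did so) and below them for Adamtsl1, Timp3 and Mmp13 (5.88% of all genes). With scaling by library size alone 2 members lay below, Timp3 no longer being one, and on the TPM scale the groups overlapped for Timp3 and Mmp14.

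**Figure D2:**
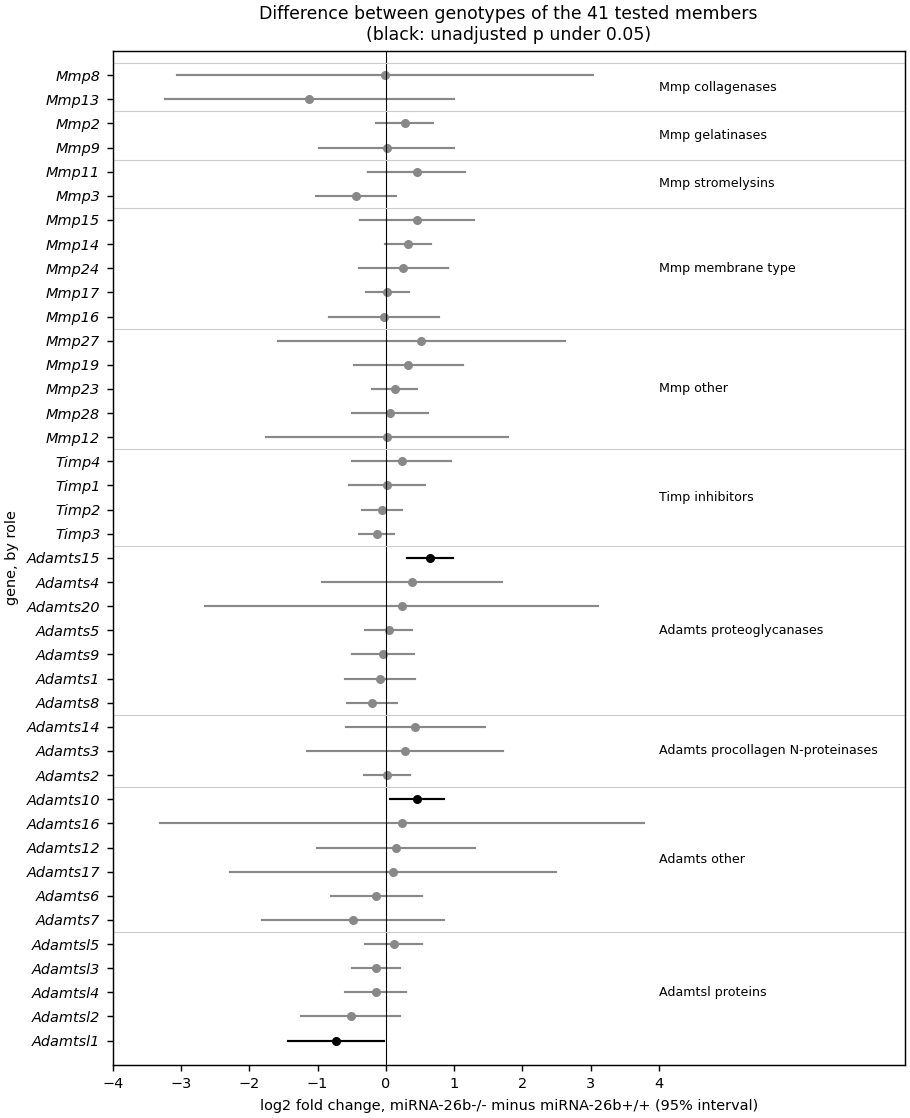
Log2 fold change of each tested member (x axis, miRNA-26b-/- minus miRNA-26b+/+; points, estimates; bars, 95% intervals; y axis, genes by role; black, unadjusted p under 0.05). Adamts15, Adamts10 and Adamtsl1 are the 3 genes whose interval leaves out 0, and the intervals widen for genes with few counts.

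Adamts15 had the clearest difference of the family. It encodes a secreted proteoglycanase that cuts versican and aggrecan, and it lies on the reverse strand of chromosome 9 from 30899155 to 30922452 (GRCm38). Its level was 188, 153 and 189 CPM in the knockouts M2626, M2627 and M2628, and 113, 104 and 121 CPM in the wild types M2629, M2630 and M2631. All 3 knockout values were above the highest wild-type value, with M2627 the nearest to the wild types. The means were 177 ± 20.5 and 113 ± 8.6 CPM (SD, n = 3 each), a 1.57-fold difference (95% interval 1.24 to 1.97; log2 fold change 0.65, SE 0.16). The unadjusted p was 0.000863 in edgeR's quasi-likelihood test, rank 19 of the 16017 genes, and the adjusted p was 0.64. The unadjusted p stayed under 0.05 in all 17 alternatives that give one, and the adjusted p ranged from 0.0175 with DESeq2 to 0.9996 without M2627 and M2630, so that passing the adjusted threshold depends on the test. An exact permutation test of 3 against 3 animals cannot give less than 0.1, and gave 0.1 here. Its longest 3′ UTR holds no match to the seed.

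For the other 6 proteoglycanases of the list the genotypes overlapped. Adamts8 starts 20.1 kb from Adamts15 on the opposite strand and encodes an enzyme first known for blocking vessel growth. It was measured at 85.0, 72.2 and 70.7 CPM in miRNA-26b-/- and 85.4, 79.6 and 97.1 CPM in miRNA-26b+/+ aortas, which overlapped, with a log2 fold change of -0.21 (SE 0.17). Adamts1 was 333, 224 and 463 CPM against 291, 491 and 299 CPM. M2628 and M2630 were high for Adamts1, 1 of each genotype, so the groups overlapped widely (log2 fold change -0.08, SE 0.24), and the sign turned to 0.15 without M2627 and 0.21 without M2630. Adamts5, the main aggrecanase of mouse cartilage and a neighbour of Adamts1 on chromosome 16, lay between 98.0 and 118 CPM in all 6 libraries (log2 fold change 0.04, SE 0.16). Adamts9, which carries a seed match, had a log2 fold change of -0.05 (SE 0.21). Adamts4, an inducible aggrecanase, ranged from 2.58 to 10.4 CPM and was high in M2628 and M2630. Adamts20, better known from skin pigmentation, had counts in 3 libraries only, 91, 34 and 44 of them in M2627, M2630 and M2631.

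Adamts10 encodes an enzyme with weak catalytic activity that binds fibrillin microfibrils. It was 70.9, 63.9 and 67.2 CPM in miRNA-26b-/- and 44.2, 47.0 and 56.3 CPM in miRNA-26b+/+ aortas. Every knockout value lay above every wild-type value, with M2631 the nearest of the wild types. The means were 67.4 ± 3.51 and 49.2 ± 6.35 CPM (SD, n = 3 each), a 1.37-fold difference (95% interval 1.04 to 1.80) with an unadjusted p of 0.0281 and an adjusted p of 0.736 in edgeR's quasi-likelihood test. The unadjusted p stayed under 0.05 in 13 of 17 alternatives, and passed 0.05 without M2626 (0.0657), M2629 (0.0934) or M2630 (0.0717) and without M2627 and M2630 together (0.1). Its close relative Adamts6 (log2 fold change -0.14, SE 0.31) and the pair Adamts7 (-0.48, SE 0.63) and Adamts12 (0.15, SE 0.54), both able to cut cartilage oligomeric matrix protein, overlapped between the genotypes. Adamts7 ranged from 1.35 CPM in M2628 to 9.26 CPM in M2630. Adamts16 and Adamts17 had few counts, and the Adamts17 level differed 83.5-fold between its highest and lowest library. Among the procollagen N-proteinases, Adamts2 was 352, 358 and 507 CPM against 357, 424 and 421 CPM. Apart from the high value in M2628, its levels lay close together (log2 fold change 0.02, SE 0.16), and the estimate was -0.17 without M2628 and -0.06 without M2629. The much lower Adamts14 and Adamts3 had log2 fold changes of 0.43 (SE 0.48) and 0.28 (SE 0.67).

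Of the catalytically inactive relatives, Adamtsl1 (punctin) had a lower level in miRNA-26b-/- aortas at an unadjusted p under 0.05. It was 12.5, 11.1 and 16.7 CPM in miRNA-26b-/- and 18.7, 17.4 and 30.3 CPM in miRNA-26b+/+ libraries. The groups did not overlap, but M2628 was close to M2630, and the wild-type library M2631 stood far above the rest. The means were 13.5 ± 2.90 and 22.1 ± 7.08 CPM (SD, n = 3 each), a fold of 0.602 (95% interval 0.371 to 0.977; log2 fold change -0.73, SE 0.33), with an unadjusted p of 0.0412 and an adjusted p of 0.749 in edgeR's quasi-likelihood test. Without M2631 the log2 fold change was -0.44 with an unadjusted p of 0.23, and the unadjusted p also passed 0.05 without M2626 (0.0853), without M2627 (0.131), without M2627 and M2630 (0.101) and with DESeq2 (0.0677). Adamtsl2, a binding partner of latent TGF-beta binding protein, was 12.1 CPM in M2626 and 33.7 to 58.5 CPM in the other 5 libraries (log2 fold change -0.52, SE 0.34). Adamtsl3 (-0.14, SE 0.17), Adamtsl4, which takes part in microfibril formation (-0.15, SE 0.21), and Adamtsl5 (0.12, SE 0.20) overlapped between the genotypes. Adamtsl5 was 106, 77.7 and 108 CPM against 81.1, 75.9 and 111 CPM.

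**Figure D3:**
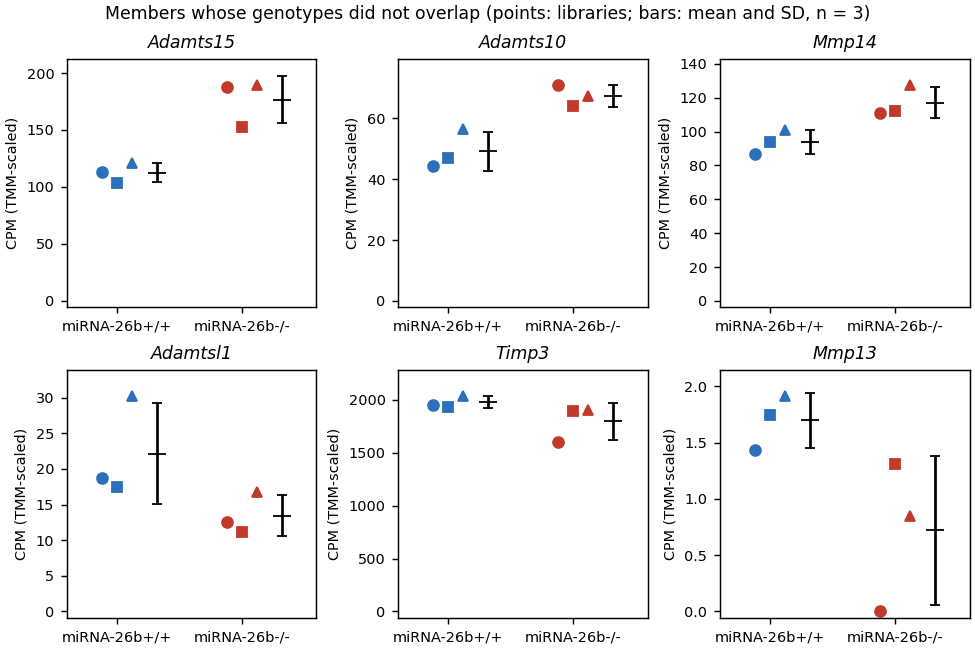
Level of the 6 members whose genotypes did not overlap (y axes, TMM-scaled CPM; points, libraries; black bars, mean and SD, n = 3). Every knockout point lies above every wild-type point for Adamts15, Adamts10 and Mmp14 and below for Adamtsl1, Timp3 (not with library size scaling) and Mmp13, while M2631 stands high for Adamtsl1, and M2626 stands low for Timp3 and has no counts for Mmp13.

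No MMP passed an unadjusted p of 0.05 among the 16 tested. Mmp14, the membrane-type enzyme that activates the precursor of MMP-2 at the cell surface and cuts fibrillar collagen, came nearest. It was 111, 112 and 127 CPM in miRNA-26b-/- and 87.0, 93.5 and 101 CPM in miRNA-26b+/+ aortas. The genotypes did not overlap on this scale (on the TPM scale M2626 had 55.9 and M2631 had 56.7), with means of 117 ± 9.10 and 93.9 ± 7.10 CPM (SD, n = 3 each). The fold was 1.25 (95% interval 0.986 to 1.57), the unadjusted p was 0.0635 and the adjusted p was 0.769 in edgeR's quasi-likelihood test, and with DESeq2 the unadjusted p was 0.0499. Mmp14 is also a member with a seed match, printed above. The other members with one had log2 fold changes of -0.02 (Mmp16), 0.26 (Mmp24), -0.14 (Adamts6), -0.48 (Adamts7), -0.05 (Adamts9) and 0.23 (Adamts20), and for each of these 6 the genotypes overlapped. The signs of the 7 were mixed, 3 higher and 4 lower in miRNA-26b-/- aortas.

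Mmp2 was 190, 226 and 357 CPM in miRNA-26b-/- and 205, 215 and 219 CPM in miRNA-26b+/+ aortas. The knockout library M2628 stood high and M2626 low, with the wild types between them, and the log2 fold change of 0.27 (SE 0.20) was -0.03 without M2628 and 0.45 without M2626, where the unadjusted p was 0.0329. Mmp9, the gelatinase typical of white blood cells, was 3.72 to 10.9 CPM (log2 fold change 0.01, SE 0.46). Mmp3, which cuts proteoglycans and activates other MMPs, was 57.9, 61.0 and 109 CPM against 63.7, 132 and 114 CPM. M2628 lay with the 2 higher wild types and M2629 with the 2 lower knockouts, so the groups overlapped (log2 fold change -0.44, SE 0.27). Without M2628 the estimate was -0.79, with an unadjusted p of 0.00621, and without M2629 it was -0.69, with an unadjusted p of 0.0217.

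Mmp23 and Mmp17 were the steadiest of the abundant MMPs. Mmp23 was 139, 127 and 117 CPM against 124, 115 and 111 CPM, a log2 fold change of 0.13 (SE 0.15). Mmp17 was 276, 243 and 228 CPM against 231, 225 and 281 CPM, a log2 fold change of 0.02 (SE 0.15) whose sign changed when 1 library was left out. Both pairs of groups overlapped. Mmp11, Mmp15 and Mmp19 varied more, by 3, 2.81 and 3.49-fold between the highest and lowest library. Mmp12, the macrophage elastase, ran from 0.695 CPM in M2631 to 9.43 CPM in M2628.

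The collagenases were scarce. Mmp13, the main interstitial collagenase of the mouse, had 0, 44 and 24 counts in miRNA-26b-/- and 44, 48 and 58 counts in miRNA-26b+/+ libraries. On the CPM scale these were 0, 1.31 and 0.851 against 1.44, 1.75 and 1.92, so the groups did not overlap, but M2627 and M2629 were close and the log2 fold change of -1.12 had an SE of 1.01 (unadjusted p 0.28 in edgeR's quasi-likelihood test, adjusted p 0.905). Mmp8, the neutrophil collagenase, had counts in 3 libraries, 94 in M2628, 12 in M2629 and 84 in M2631. Mmp13 and Mmp8 belong to a run of 10 Mmp genes on chromosome 9 from 7272514 to 7699585, a stretch of 427 kb, of which Mmp3 was the abundant gene and 5 had no counts. Mmp1a is annotated there as a polymorphic pseudogene.

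None of the inhibitors had an unadjusted p under 0.05 in edgeR's quasi-likelihood test. The 95% interval lay within 1.5-fold for Timp1, Timp2 and Timp3 but ran from 0.708 to 1.94-fold for Timp4. Timp3, the matrix-bound inhibitor that also blocks ADAMTS enzymes, was 1598, 1892 and 1907 CPM in miRNA-26b-/- and 1947, 1936 and 2039 CPM in miRNA-26b+/+ aortas. The groups did not overlap on this scale, but M2627 and M2628 came close to the lowest wild-type value. With library size scaling and on the TPM scale (785 in M2628 against 768 in M2630) they overlapped, and the log2 fold change was -0.13 (SE 0.12; unadjusted p 0.283 in edgeR's quasi-likelihood test, adjusted p 0.905). Of the Timp3 exon length, 21.3% overlaps exons of Syn3, within which it lies, and reads there were counted for both genes. Timp2, the partner of MMP-14 in activating MMP-2, was 1222, 1133 and 1547 CPM against 1319, 1336 and 1408 CPM. M2628 was again the highest library and the groups overlapped (log2 fold change -0.06, SE 0.13). Timp1 was 21.1, 23 and 24.1 CPM against 23.1, 18.4 and 25.7 CPM (log2 fold change 0.02, SE 0.26). Timp4, the inhibitor best known from heart, was 18.7 to 46.3 CPM and highest in M2626, M2627 and M2630 (log2 fold change 0.23, SE 0.34). The signs of the small Timp1, Timp2 and Mmp17 differences turned when single libraries were left out.

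**Figure D4:**
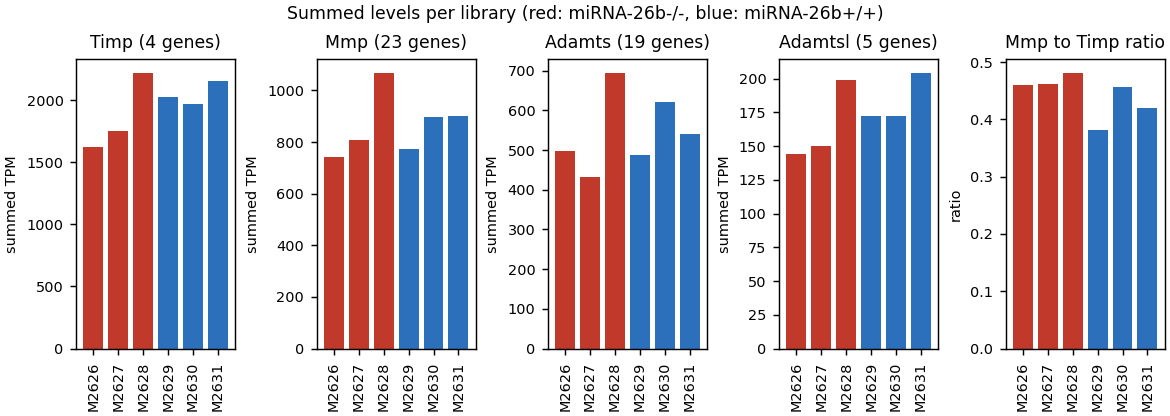
Summed level per library of the Timp, Mmp, Adamts and Adamtsl genes (y axes, summed TPM from 0) and the ratio of summed Mmp to summed Timp TPM (right panel); red, miRNA-26b-/-; blue, miRNA-26b+/+. The sums overlap between genotypes with M2628 the highest for Timp, Mmp and Adamts, and the 3 knockout ratios lie just above the highest wild-type ratio.

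Summed over the family, Timp transcripts were 1620, 1753 and 2219 TPM in miRNA-26b-/- and 2026, 1968 and 2152 TPM in miRNA-26b+/+ aortas, and 94.0 to 95.4% of this was Timp2 and Timp3. Mmp transcripts summed to 744, 809 and 1068 TPM against 774, 898 and 902 TPM, with Mmp2 giving 22.7 to 33.3% of them. Both sums overlapped between the genotypes. The ratio of summed Mmp to summed Timp was 0.459, 0.462 and 0.481 in miRNA-26b-/- and 0.382, 0.456 and 0.419 in miRNA-26b+/+ aortas. These did not overlap, although M2630 was close to M2626, and on the CPM scale, where long genes weigh more, the values were 0.321, 0.305 and 0.318 against 0.254, 0.282 and 0.275. The ratio was not tested, since it is a score over members, and it says nothing of active enzyme. Adamts transcripts summed to 497, 433 and 694 TPM against 487, 621 and 540 TPM, and Adamtsl transcripts to 144, 150 and 199 TPM against 172, 172 and 204 TPM.

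The spread within a genotype was wide. The median member differed 2.19-fold between its highest and lowest library, and the median coefficient of variation within genotypes was 26.8%. Of the 36 members with counts in every library, 14 were highest in the knockout library M2628 and 9 in the wild type M2631, while 10 were lowest in the knockout M2626. The marker lists moved between the same libraries. Fibroblast markers summed to 2383, 2957 and 4882 TPM in M2626, M2627 and M2628 and to 3306 to 3834 TPM in miRNA-26b+/+ aortas, and macrophage markers to 661, 790 and 1930 TPM and 1123 to 1253 TPM, with no marker of either list at 0. The endothelial sum was also low in M2626 and M2627, at 248 and 268 TPM, and high in M2628, at 854 TPM. Not every endothelial marker moved this way. Kdr was lowest in M2628, at 8.83 CPM, and Erg in M2626, at 75.4 CPM, lay above M2629 and M2630, at 62.2 and 67.2 CPM. Mmp2, Mmp19, Mmp12, Adamts12 and Adamts17 were highest in M2628, like the fibroblast, macrophage and endothelial sums. Mmp15 was highest in M2627 and M2630, where adipocyte markers summed to 2354 and 1783 TPM against 626 to 1267 TPM elsewhere and sympathetic neuron markers to 321 and 63.5 TPM against 11.1 to 17.8 TPM. Cardiac markers were also highest there, at 378 and 304 TPM against 19.6 to 69.1 TPM. The part of these cells in the members' values was not tested. Likewise, the Schwann cell and skeletal muscle sums were higher in all miRNA-26b-/- libraries, as Adamts15, Adamts10 and Mmp14 were. The neutrophil sum, mostly of S100a8 and S100a9, was lower, as Adamtsl1, Timp3 and Mmp13 were. The part of Schwann cells, skeletal muscle and neutrophils in these differences was not tested.

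**Figure D5:**
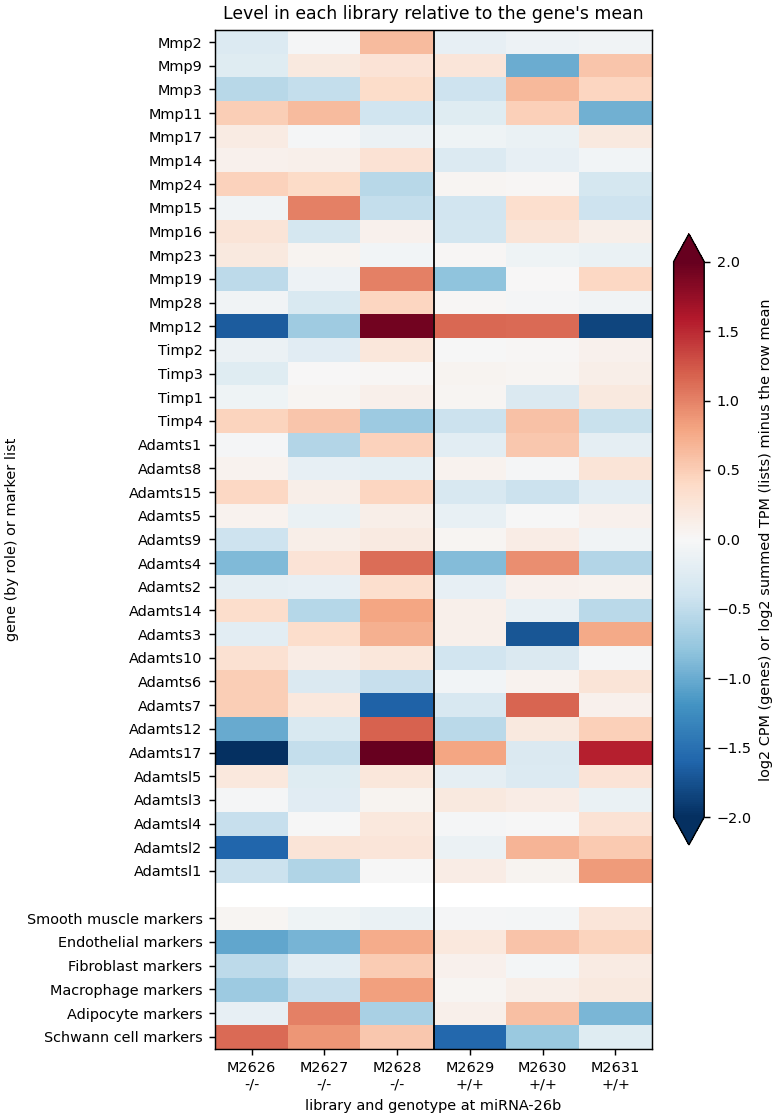
Level in each library of the 36 members with counts in every library (log2 CPM minus the gene's mean, genes by role) and of 6 marker lists (log2 summed TPM minus the list's mean); colours are capped at ±2. Many genes are red in M2628 and blue in M2626, as the endothelial, fibroblast and macrophage lists are, while Adamts15 and Adamts10 are red in all 3 miRNA-26b-/- libraries.

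Around the members, 53 genes were listed that activate, inhibit, clear or are cut by these enzymes or encode ADAM sheddases, a related family of membrane proteinases, and 44 of them were tested. At an unadjusted p under 0.05 in edgeR's quasi-likelihood test, 6 of them were called (13.6% against 6.47% of all genes), 1 higher and 5 lower in miRNA-26b-/- aortas, and 0 passed adjustment (1 with DESeq2). Without M2628 the 6 became 19, where the share of all genes called was 10.8%, and without M2627 and M2630 they became 1, where it was 4%. None of the 8 tested activators, such as furin and the plasminogen activators, was called. Among 19 tested substrates, Eln, the elastin of the lamellae, was higher, at 5616, 6682 and 7345 CPM against 4682, 4875 and 5048 CPM (log2 fold change 0.43, SE 0.12, unadjusted p 0.00371, adjusted p 0.731). Vcan, the versican core protein cut by several ADAMTS enzymes, was lower, at 104, 135 and 138 CPM against 146, 182 and 201 CPM (log2 fold change -0.49, SE 0.17, unadjusted p 0.012, adjusted p 0.736). For both genes the genotypes did not overlap. Fn1 (fibronectin) and Col4a1 (a basement membrane collagen chain) had log2 fold changes of -0.36 (SE 0.14) and -0.34 (SE 0.13). Reck, a membrane-anchored inhibitor of MMP-2, MMP-9 and MMP-14, was lower, at 109, 136 and 162 CPM against 166, 197 and 190 CPM (log2 fold change -0.44, SE 0.17, unadjusted p 0.0193, adjusted p 0.736), with M2628 just under the lowest wild type. Of the 7 tested ADAM sheddases, Adam9 was lower (log2 fold change -0.37, SE 0.15).

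Precision tended to follow the level, though not for every member. For 22 of the 41 tested members the 95% interval of the log2 fold change lay between -1 and 1, and for 11 within 1.5-fold, among them Timp2, Timp3, Mmp17, Mmp23, Adamts2 and Adamts5. The abundant Mmp2, Adamts1 and Mmp3 were not among these 11, with intervals of 0.905 to 1.62, 0.663 to 1.34 and 0.493 to 1.11-fold. The 5 tested members with a library at 0, which were Adamts16, Adamts20, Mmp8, Mmp13 and Mmp27, had far wider intervals. For Adamts16 the interval ran from -3.32 to 3.78 on the log2 scale, with 8, 0 and 42 counts in miRNA-26b-/- and 43, 0 and 0 in miRNA-26b+/+ libraries. Differences within such intervals were not detectable with this spread between libraries and 3 mice per group. Since reads were counted without strand and for each gene they touched, levels of members that share exons with another gene hold some of its reads. This holds for 22.3% of the exon length of Mmp19 (Tmem198b), 13.6% of Mmp24 (BC029722), 12% of Mmp28 (1700020L24Rik) and 10.6% of Adamts8 (Gm29724), and for no exon of Adamts15, Adamts10, Adamtsl1 or Mmp14.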

How the data were processed

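The authors aligned the reads of the 6 libraries (TruSeq, HiSeq) with STAR to GRCm38 and counted them with featureCounts 1.6.4 over exons, without strand. The file header names GENCODE M21 as the annotation, whereas the paper names M23, and M21 was used here. A read touching exons of more than 1 gene counted for each gene, and multi-mapping reads were left out. The deposited counts are whole numbers per gene, not normalized. A second deposited table, which holds counts, log2 CPM, fold changes and p-values of the authors' own comparison, was not used. Here, a gene was kept if its counts summed to 2 or more and its CPM exceeded 1 in 2 or more libraries. After TMM scaling, the kept genes went into edgeR's quasi-likelihood test (edgeR 4.0.16, R 4.3.3, legacy method off, prior count 0.125), 3 miRNA-26b-/- against 3 miRNA-26b+/+ libraries without covariates, with Benjamini-Hochberg adjustment over all genes tested. TPM was computed from the counts and the exon length in the table.

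Named genes are members with an unadjusted p under 0.05, the 10 highest by mean TPM and those whose groups did not overlap, with pathway genes at an unadjusted p under 0.05. Other members are given by ranges or fold changes as part of their role group. The members and lists were chosen with earlier results of these data known. Choices varied were scaling (upper quartile, library size, RLE), the test (DESeq2 1.42.0, limma 3.58.1 voom, likelihood ratio, earlier quasi-likelihood method, robust shrinkage), the filter, the prior count and leaving out libraries. The procedure was tested on simulated data. Precision is limited by 3 mice per group and 25706728 to 33345037 counts per library.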

Additional observations from a re-analysis of the deposited data

How the results depend on the processing

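The number of members at an unadjusted p under 0.05 (3 of 41) was 2 to 5 when 1 library was left out, the higher ones 1 to 3 and the lower ones 0 to 2, while 4.36 to 10.8% of all genes were called, the 5 members falling where it was 10.8% (without M2628). Without M2627 and M2630 the numbers were 1, 1 and 0, where 4% of all genes were called, and 5 members then had all miRNA-26b-/- values above the others, where 15.7% of all genes did. With DESeq2 0 members were lower at an unadjusted p under 0.05, and 1 passed adjustment, among 57 of all genes. Leaving out 1 library gave 0 members passing adjustment in each case. Of the 44 other genes of proteolysis, 4 to 19 were called when 1 library was left out, 1 to 3 higher and 1 to 17 lower, and 0 to 3 passed adjustment, the highest total falling in the same setting without M2628, where 82 of all genes passed adjustment. Without M2627 and M2630 they were 1 in all, 0 higher and 1 lower. Library size scaling gave 2 higher, voom 8 lower, the likelihood ratio test 3 lower, and DESeq2 1 after adjustment. The cause of these shifts was not tested.

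Log2 fold changes near 0 changed sign when libraries were left out. When 1 library was left out they ranged from -0.063 to 0.12 for Mmp17 (negative without M2626, M2629 or M2630), from -0.37 to 0.21 for Adamts1 (positive without M2627 or M2630), from -0.20 to 0.032 for Timp2 (positive without M2627), from -0.17 to 0.11 for Adamts2 (negative without M2628 or M2629), from -0.033 to 0.45 for Mmp2 (negative without M2628) and from -0.094 to 0.12 for Timp1 (negative without M2628 or M2630). Without both M2627 and M2630 the signs also changed for Adamts1 (0.43), Mmp17 (-0.025), Timp1 (-0.11) and Timp2 (0.023). For the 15 members named by rule, 242 values under alternatives kept direction and side of the threshold, 15 changed sign, 9 lost and 4 gained an unadjusted p under 0.05. No paired analysis was possible because the labels give the libraries no shared replicate numbers.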
